A study of Arabidopsis thaliana with 18 samples.

Results

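The genes described here are those of etiolated *Arabidopsis* seedlings that stood well above their dark level after 60 min of white light (WL) and were still high after 360 min. They were chosen by their group means and library values in the deposited table of normalized counts, on 4 conditions: a mean over all 18 libraries of at least 20, a mean at 60, at 150 and at 360 min that was each at least 4 times the dark mean plus 1, and, at each of these times, a lowest library above the highest dark library. Of 34212 genes, 14677 had a mean of at least 20, and 161 met every condition. Taken alone, a mean of at least 4 times dark plus 1 was reached by 2.58% of the 14677 genes after 60 min, by 4.09% after 150 min and by 6.3% after 360 min, and libraries all above dark by 7.43%, 12.9% and 11.5% at these times. Normalized counts are the authors' read counts divided by 1 size factor per library, so that 1 read was worth 0.447 to 3.32 of them. Without the second dark library of the table the conditions gave 245 genes. All libraries came from whole 5-day-old Columbia-0 seedlings grown in constant darkness without sucrose once germination had been induced. The paper's growth methods state that white light was used for this induction, before the plates were covered. The tissue was collected in 6 groups of 3 biological replicates. Dark seedlings were taken first, and the remaining ones were then given white light for 15, 30, 60, 150 or 360 min. No dark group was collected at the later times, so effects of light and of elapsed time cannot be told apart. Polyadenylated RNA was sequenced. Since the conditions used the dark, 60, 150 and 360 min values, the difference of these times from dark is given as a description and was not tested.

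Seedlings that germinate under soil build a long hypocotyl and closed, unpigmented cotyledons, and deetiolation is the switch to green, photosynthetic growth once light is perceived. Phytochromes and cryptochromes then inactivate the PIF factors and the COP1/SPA ubiquitin ligase, which otherwise removes the bZIP factor HY5. Genes for light-harvesting proteins, chlorophyll synthesis, flavonoid sunscreens and photoprotection are classic targets of this switch.

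Total counts ranged between 3577432 and 16156302 per library, of which plastid 23S ribosomal RNA took 3.37% to 83.86%. Without it, the libraries held 1999671 to 10821472 counts, and the 3 libraries of 60 min 1999671 to 3456720. In each of the 6 groups 1 library stood apart in *PXMT1*, a methyltransferase gene of the salicylic acid methyltransferase family, with 14.2 to 55.2 normalized counts against 1272 to 5300.1 in the other 12 libraries. In all 6 groups this was also the library with the smallest plastid 23S share. It was replicate 1 in the dark and at 150 min. At 15 and 30 min it was replicate 2, and at 60 and 360 min replicate 3. Without these 6 libraries the 4 conditions gave 194 genes, 129 of them among the 161. At 60, 150 and 360 min alike, 19 of the 161 genes (11.8%) were lowest in that library and 16 (9.94%) were highest in it, against 12.4% and 13.4% of the 14677 genes. *HY5*, *BBX30*, *HSP90.1* and *LHCB1.1* were among the lowest, and *SNZ* and *GUN4* among the highest. Markers of the endodermis and stele (*SCR*, *SHR*), phloem (*SUC2*, *APL*) and epidermis (*ATML1*) were present in all 18 libraries, whereas the root hair markers *COBL9* and *EXPA7* stayed at or below 11.3 and had a median of 0. The root marker *PLT1* was above 0 in 10 libraries, the xylem markers *VND7* and *IRX3* in 12 and 17. Of the stomatal lineage, *SPCH* was above 0 in 13 libraries and *FAMA* in 16. The seed storage gene *CRA1* ranged from 1.55 to 1439 between libraries, and *SESA1* was above 0 in 1. What sets the 6 libraries low in *PXMT1* apart was not tested. In whole seedlings, more RNA per cell and more cells of a type cannot be told apart.

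Most of the 161 genes stood near their dark level at 15 min, and every one was above it at 60, 150 and 360 min, as the conditions require. Relative to the dark mean plus 1, the median ratio over the 161 genes was 1.08 after 15 min and 2.08 after 30 min. It was 7.02 after 60 min, 11.9 after 150 min and 13.4 after 360 min, while that over all 14677 genes stayed between 0.941 and 1.01. Individual ratios at 360 min lay between 4.16 and 151.6. The highest of the 6 group means fell at 360 min for 86 genes, at 150 min for 55, at 60 min for 19 and at 30 min for 1, which was *DREB2A*. The genes started low, with a median dark mean of 21.1 normalized counts against 98.4 over the 14677 genes. The conditions favour a low dark mean, so this is no separate result. None had a dark mean of 0, but 15 had at least 1 dark library at 0.

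**Figure D1:**
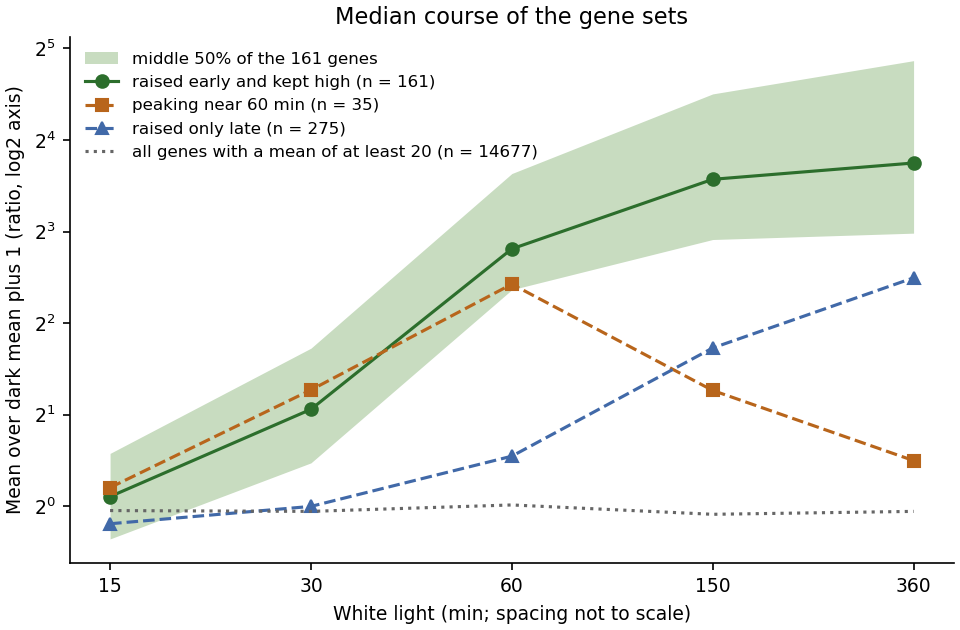
Median ratio to the dark mean plus 1 (vertical axis, log2 scale) against minutes of white light (horizontal axis, not to scale) for 4 gene sets, with the band spanning the middle 50% of the 161 genes. The 161 genes have a median of 13.4 at 360 min and 7.02 at 60 min, the 275 late genes reach 5.64 only at 360 min, and the 35 genes peaking near 60 min return to 1.41.

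Not every gene waited for 60 min. At 15 min, the 3 libraries lay above all 3 dark libraries for 15 of the 161 genes (9.32%), against 3.34% of the 14677 genes, and the mean was at least 4 times the dark mean plus 1 for 2 (background 0.0749%) and at least 2 times for 16 (background 1.06%). At 30 min all libraries lay above the dark ones for 76 genes (47.2%), against 5.56%. A 30 min mean of at least 2 times the dark mean plus 1 was found for 86 of the 161 (background 2.79%), and of at least 4 times for 30 (background 0.395%). These counts are a description, since the conditions had read the same dark libraries and kept their values low. For the same reason the 161 genes were not tested for 15 or 30 min against dark.

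The step between 15 and 30 min could be tested, because the conditions did not set these groups against each other or against dark. Of the 160 genes tested, 145 were on the higher side at 30 min, and the median log2 fold change of 30 min over 15 min was 0.89, against -0.00 over all 16747 genes tested. No gene passed the adjusted threshold of 0.01 in edgeR, in the set or elsewhere (background 0.0%). At an unadjusted p below 0.05, edgeR gave 65 of the 160 genes (40.6%) as higher and 0 as lower, against 1.04% and 0.215% of all genes. DESeq2, with its adjusted p below 0.01, called 11 of the 160 higher and 17 genes in all. All 3 libraries of 30 min were above all 3 of 15 min for 80 of the 161 genes, against 6.21% of the 14677.

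*ABCI21* came closest to the threshold. It encodes an ABC-type ATPase without a membrane-spanning part. *ABCI21* had 29.9, 23.5 and 21.3 normalized counts in the dark libraries, 40.5, 24.8 and 32.1 at 15 min, 195, 418 and 288 at 30 min, 911, 1061 and 3406 at 60 min, 1239, 1145 and 826 at 150 min and 478, 185 and 389 at 360 min. The 30 min libraries were all above the 15 min ones, by a log2 fold change of 3.20 ± 0.49 (SE, n = 3 each, edgeR adjusted p = 0.0211), and the peak fell at 60 min. Its relative *ABCI20* had 379, 728 and 460.3 normalized counts at 30 min and 118, 126 and 153 at 15 min (log2 fold change 1.97 ± 0.41, edgeR adjusted p = 0.118). The libraries of the 2 times did not overlap. Unlike *ABCI21*, *ABCI20* had its highest mean at 150 min, with 3609.9, 3937 and 4701. The third relative, *ABCI19*, was no member: it had 16.6, 8.41 and 24.8 at 360 min and 8.62, 29.5 and 0 in the dark, and these overlapped.

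Of 22 regulators of light signalling, 9 were members. They were *HY5* and its homolog *HYH*, the B-box genes *BBX24*, *BBX25*, *BBX30*, *BBX31* and *BBX32*, the UV-B pathway repressor *RUP1* and the COP1 partner *SPA3*. All 9 were on the higher side at 30 min relative to 15 min (median log2 1.59). In the whole list 18 of 21 were, and 49.9% of all genes tested. At an unadjusted edgeR p below 0.05, 6 of the 9 were higher, against 9 of 21 in the whole list and 1.04% of all genes. *HY5* had 145, 137 and 287 normalized counts in the dark libraries, 218, 281 and 347 at 15 min, 714, 671 and 1184 at 30 min, 3907, 2667 and 1308 at 60 min, 1529.9, 2909 and 4935 at 150 min and 4793, 2093 and 769 at 360 min. The 30 min libraries lay above every 15 min and dark library, and the values of the 3 later times spread widely and overlapped. *BBX30* had 1.72, 2.19 and 4.27 normalized counts in the dark libraries, 4.82, 13.9 and 10.09 at 15 min, 85.6, 81.7 and 155 at 30 min, 544, 433 and 209 at 60 min, 134, 193 and 296 at 150 min and 545, 149 and 59.2 at 360 min. *BBX30* encodes a small B-box protein, and its 30 min mean was 28.8 times the dark mean plus 1, the highest such ratio in the set. Its log2 fold change of 30 over 15 min was 3.47 ± 0.66 (edgeR adjusted p = 0.0554). *HYH* followed at 30 min with 48.9, 43.8 and 72.5 against 12.05, 3.61 and 20.2 at 15 min, with a log2 fold change of 2.22 ± 0.53 (edgeR adjusted p = 0.311). It reached 108 times the dark mean plus 1 at 360 min, with 1405, 1704 and 572. *BBX32* had 104, 290.4 and 430.1 at 60 min and 4.89, 4.02 and 16.0 at 30 min, and its 60 min mean was 109 times the dark mean plus 1. *BBX31* had 62.0, 71.4 and 44.6 at 60 min and 4.02, 0.547 and 0 in the dark. *BBX25* had 135, 177 and 145 at 60 min and 2.298, 14.2 and 1.42 in the dark.

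Between 60 and 360 min none of these 9 regulators passed the edgeR threshold in either direction (median log2 fold change of 360 over 60 min -0.15, 2 of 9 positive). The conditions had read both times, so this is given only as a description. In the whole list, 0 of 21 genes passed in either direction.

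**Figure D2:**
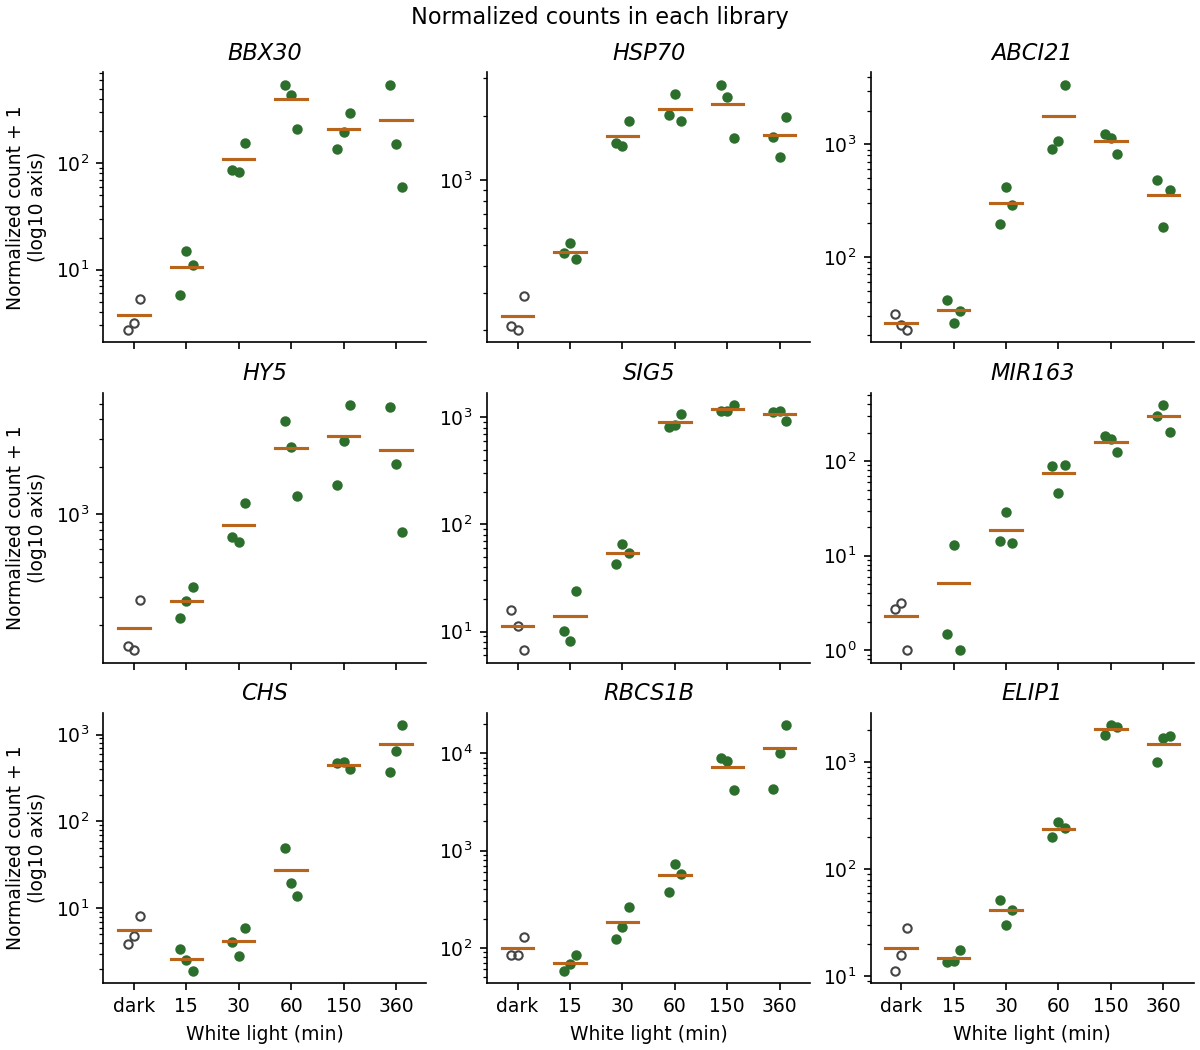
Normalized counts plus 1 (vertical axes, log10 scale, a scale of its own for each gene) in each library (points, open for dark) and the group means (bars) in the dark and after 15, 30, 60, 150 and 360 min of white light. *BBX30* and *HSP70* are above all 15 min libraries by 30 min, while *CHS* lies between 369 and 1282 at 360 min and between 1.79 and 4.88 at 30 min.

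Genes of heat shock proteins and chaperones were another quick group, with 9 of 23 genes in a list that was put together after the values were seen. They comprised the chaperones *HSP70* and *HSP90.1*, the peptidyl-prolyl isomerase gene *AT5G48570*, the transcription factor *DREB2A*, which acts in heat and drought responses, and the small heat shock proteins *HSP17.6II*, *AT1G07400*, *AT1G54050*, *AT5G51440* and *AT2G19310*. *HSP70* had 209, 200.1 and 289 normalized counts in the dark libraries, 457, 509 and 429 at 15 min, 1489.8, 1435 and 1885 at 30 min, 2016, 2515 and 1892 at 60 min, 2787, 2426 and 1569 at 150 min and 1591, 1281 and 1973 at 360 min. Already at 15 min all *HSP70* libraries were above the dark ones, and the 30 min libraries were above those of 15 min by a log2 fold change of 1.78 ± 0.34 (edgeR adjusted p = 0.0554). *DREB2A* had 374, 204 and 199 normalized counts in the dark libraries, 658, 843 and 435 at 15 min, 1285, 1805 and 1424 at 30 min, 1601, 1137 and 777 at 60 min, 1431, 812 and 1164 at 150 min and 1036, 1225 and 1685 at 360 min. No 15 min library of *DREB2A* overlapped the dark or the 30 min ones. *AT1G54050* had 45.8, 30.8 and 47.4 at 30 min against 11.1, 14.4 and 9.17 at 15 min, and its 30 min mean was 11.7 times the dark mean plus 1. *AT1G07400* stood at 9.76 times and *AT5G48570* at 6.55 times at 30 min. Across the whole list, 21 of 21 tested genes were higher at 30 than at 15 min, against 49.9% of all genes tested. Their median log2 value was 1.41. At an unadjusted edgeR p below 0.05, 10 of the 21 were higher, against 1.04% of all genes. Since the list was made with these values known, its counts are only a description. From 60 to 360 min none of the 9 members passed the edgeR threshold, and their median log2 fold change of 360 over 60 min was 0.10. This is also only a description, since the conditions had read both times.

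*SIG5* encodes a sigma factor that directs the plastid-encoded RNA polymerase, and was 1 of 2 members among 10 sigma factors and greening regulators. *SIG5* had 14.9, 10.4 and 5.69 normalized counts in the dark libraries, 9.16, 7.22 and 22.9 at 15 min, 41.6, 64.3 and 53.0 at 30 min, 803, 854 and 1067 at 60 min, 1156, 1148 and 1307 at 150 min and 1123, 1149 and 921 at 360 min. The 3 libraries of 30 min were above those of 15 min (log2 fold change 1.97 ± 0.40, edgeR adjusted p = 0.105), and from 60 to 360 min all 9 libraries stayed between 803 and 1307. The other was *GNL*, a GATA factor of greening, which had 0.964, 0 and 0.917 normalized counts at 15 min, 5.50, 8.93 and 27.9 at 30 min and 87.4, 41.9 and 166 at 60 min. Its log2 fold change of 30 over 15 min was 4.34 ± 1.02 (edgeR adjusted p = 0.284), and no 15 min library held more than 2 reads. *CRY3*, a cryptochrome of the DASH type found in organelles, was the single member among 10 photoreceptors and photolyases. It had 61.1, 69.7 and 52.3 at 30 min and 18.8, 21.7 and 15.6 at 15 min, and its highest mean was at 150 min with 676, 723 and 733. *TZP*, a zinc knuckle gene of light-controlled growth, had 127, 174 and 138 at 30 min and 32.3, 64.5 and 32.1 at 15 min (log2 fold change 1.78 ± 0.32, edgeR adjusted p = 0.0554).

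A list of 12 genes of chloroplast movement, also put together after the values were seen, held 6 members. *RPT2* acts in phototropin signalling, *JAC1*, *KAC1*, *PMI1* and *PMI2* are needed for the movement itself, and the reference describes *AT1G64500* as a glutaredoxin family gene. *AT1G64500* had 366, 219.7 and 398 normalized counts at 30 min and 84.8, 53.6 and 92.6 at 15 min, with no overlap (log2 fold change 2.04 ± 0.38, edgeR adjusted p = 0.0554). *RPT2* had 501, 706 and 478 at 30 min and 147, 261 and 138 at 15 min (log2 fold change 1.62 ± 0.37, edgeR adjusted p = 0.199). *PMI2* was slower, with 279, 180.2 and 254 at 60 min and 45.2, 30.8 and 46.7 at 30 min. At 360 min the 6 genes stood at 5.02 to 25.2 times the dark mean plus 1, and at 60 min at 5.51 to 21.1 times.

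Nuclear genes of photosynthesis lay nearer to the dark level at 30 min. Among the antenna proteins, which bind the chlorophyll that collects light, 7 of 21 genes were members: *LHCA1*, *LHCA4* and *LHCA5* of photosystem I and *LHCB1.1*, *LHCB2.1*, *LHCB2.2* and *LHCB3* of photosystem II. Their median ratio to the dark mean plus 1 was 0.64 after 15 min, 1.00 after 30 min, 6.14 after 60 min and 14.4 after 360 min. *LHCB1.1* had 81.6, 79.8 and 74.0 normalized counts in the dark, 69.9, 54.2 and 38.5 at 15 min, 77.0, 115 and 107 at 30 min, 1147, 1034 and 777 at 60 min, 4396, 7705 and 10677 at 150 min and 9712, 9222 and 5166 at 360 min. All its libraries of 15 min were below all of the dark, and all later libraries from 60 min on were far above. *LHCA4* had 814, 1299 and 427 in the dark, 3358, 5021 and 3431 at 60 min and 7513, 11694 and 12421 at 360 min. *LHCB2.1* stood at 9.65, *LHCB3* at 6.35 and *LHCA1* at 6.14 times the dark mean plus 1 at 60 min. Members of the LHCB1 and LHCB2 families have close copies, between which reads may be split.

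The LHC-like proteins, relatives of the antenna that protect against excess light, gave 4 of 9. The median log2 fold change of these members for 30 over 15 min was 1.48. Their median ratio to the dark mean plus 1 was 0.78 after 15 min and 1.98 after 30 min. *ELIP1* had 10.3, 14.8 and 27.0 normalized counts in the dark libraries, 12.5, 12.9 and 16.5 at 15 min, 50.7, 29.5 and 40.5 at 30 min, 197, 275 and 239 at 60 min, 1788, 2200.1 and 2110.0 at 150 min and 993, 1684 and 1749 at 360 min. *ELIP1*, an early light-induced protein gene, was within the dark range at 15 min and above it at 30 min, and its 150 and 360 min libraries were all above those of 60 min. Its relative *ELIP2* had 717, 957 and 1379.8 at 150 min and 95.9, 126 and 345 at 60 min, and its 150 min mean was 209.2 times the dark mean plus 1. The one-helix protein genes *OHP* and *OHP2* stood at 44.9 and 10.8 times the dark mean plus 1 at 360 min, and at 11.4 and 4.15 times at 60 min.

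Of 18 Calvin cycle genes, 3 were members. *RBCS1B* had 82.7, 82.5 and 129 normalized counts in the dark libraries, 57.4, 66.5 and 83.5 at 15 min, 123, 162 and 259 at 30 min, 372, 730.0 and 568 at 60 min, 9005, 8452 and 4173 at 150 min and 4305, 10219.7 and 19565 at 360 min. *RBCS1B* encodes a small subunit of Rubisco, for which close copies exist. *FBA1*, a plastid aldolase gene, had 1252, 1899.9 and 1879.8 at 360 min and 186, 342 and 219.7 at 60 min. *CP12-2*, whose product links 2 enzymes of the cycle into an inactive complex in the dark, had 963, 1121 and 1423 at 360 min and 226, 54.4 and 51.7 at 60 min. The photosystem and electron transport list gave 2 of 27, the photosystem I subunit gene *PSAO* and the ferredoxin gene *FD2*. *PSAO* had 1680.2, 1438 and 2703 at 60 min and 439, 510.0 and 391 in the dark, and *FD2* had 2983, 2277 and 3516 at 60 min and 398, 1023 and 448 in the dark. Chlorophyll synthesis gave 3 of 19. *CHLH*, a subunit of magnesium chelatase, had 1142, 1549 and 1673 at 60 min and 165, 228 and 174 in the dark, *GUN4*, the activator of that enzyme, had 237, 435 and 502 at 60 min and 58.6, 84.7 and 54.1 in the dark, and *PORC*, a protochlorophyllide oxidoreductase, had 76.1, 20.2 and 179.8 at 60 min and 9.77, 12.6 and 4.27 in the dark. The carotenoid, photorespiration, circadian clock, plastid antioxidant and protease, and nitrogen assimilation lists held no member among 53 genes.

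Flavonoid synthesis, which makes ultraviolet-absorbing pigments, gave 6 of 17 genes, and these differed in their start. *CHS* had 2.87, 3.83 and 7.12 normalized counts in the dark libraries, 2.41, 1.55 and 0.917 at 15 min, 3.06, 1.79 and 4.88 at 30 min, 47.9, 18.6 and 12.9 at 60 min, 473, 481 and 395 at 150 min and 369, 653 and 1282 at 360 min. *CHS*, the chalcone synthase that opens the pathway, lay below all dark libraries at 15 min, overlapped them at 30 min and was far above at 150 and 360 min. Its dark and 15 min values rest on few reads. In these libraries 1 read was worth 0.574, 0.547 and 1.42 normalized counts in the dark and 0.482, 0.516 and 0.917 at 15 min. *CHIL*, a chalcone isomerase-like gene, had 10.4, 2.23 and 24.4 at 30 min, 67.7, 10.9 and 18.8 at 60 min and 568, 821 and 652 at 360 min. *F3H*, the flavanone 3-hydroxylase 2 steps further, came earlier, with 52.6, 91.1 and 114 at 30 min and 7.23, 4.64 and 12.8 at 15 min (log2 fold change 3.33 ± 0.61, edgeR adjusted p = 0.0554). Its locus is shared over 1588 of 1681 bases with the gene *AT3G51238* on the opposite strand, which failed the set only because its lowest 60 min library equalled the highest dark one. The counting is not stated to use strand, so reads of the pair cannot be told apart. *UGT78D2*, a flavonoid glucosyltransferase, had 65.4, 47.8 and 54.4 at 30 min and 12.05, 15.0 and 9.17 at 15 min (edgeR adjusted p = 0.479). *CHI* had 33.8, 21.7 and 76.4 at 60 min. The glycosyltransferase gene *AT1G06000* lies over 1580 of 1587 bases with *AT1G06002* on the opposite strand.

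**Figure D3:**
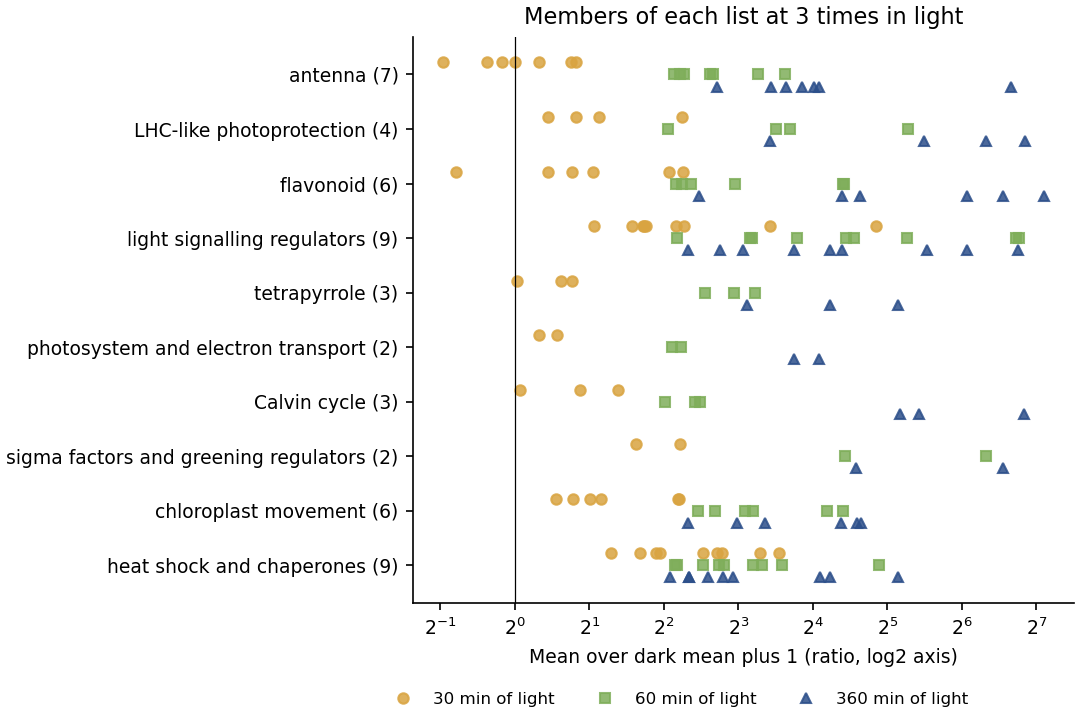
Ratio of the group mean to the dark mean plus 1 (horizontal axis, log2 scale) for each member of 10 gene lists (rows, with the number of members) at 30, 60 and 360 min of light. The 9 chaperone genes and the 9 light signalling genes are above 2 times at 30 min, whereas the 7 antenna genes have a median of 14.4 at 360 min and 1.00 at 30 min.

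Between 60 and 360 min the genes differed among themselves. The conditions put the same floor under 60 and 360 min and so fixed no direction between them. They had read the values of both times, however, and a gene below the floor at either time is not in the set. The edgeR p-values of the members, and their shares beside those of all genes, are therefore given only as a description. Of 160 genes tested by edgeR, 12 (7.5%) rose between 60 and 360 min and 1 (0.625%) fell at an adjusted p below 0.01, against 0.555% and 0.161% of all 16747 genes. The median log2 fold change of 360 over 60 min was 0.91 over the 160 genes and -0.01 over all genes, and 130 of 160 were positive. At an unadjusted p below 0.05 in edgeR, 63 were higher (background 8.2%) and 4 lower (background 6.37%). Library totals that leave out plastid 23S moved the median of all genes to -0.37, and under them the median of the 160 genes was 0.53, 107 were positive and 36 were higher at an unadjusted p below 0.05. Of the 161 genes, 63 had all 3 libraries of 360 min above all 3 of 60 min (background 7.2%) and 5 had them all below (background 6.22%). By list, and over all measured genes of each, 9 of 27 photosystem and electron transport genes rose, 7 of 18 Calvin cycle, 2 of 21 antenna, 2 of 9 LHC-like, 2 of 9 flavonoid, 2 of 11 photorespiration and 1 of 10 antioxidant and protease genes, and none of these fell. In the tetrapyrrole list 1 of 19 genes fell and none rose. No gene of the light signalling, photoreceptor, carotenoid, clock, nitrogen, sigma factor and chloroplast movement lists passed, and of 21 chaperone genes 1 fell.

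*CHS* had the highest fold change, with 369, 653 and 1282 normalized counts at 360 min against 47.9, 18.6 and 12.9 at 60 min (log2 fold change 4.86 ± 0.51, edgeR adjusted p = 2.36e-05). *CHIL* had 568, 821 and 652 at 360 min against 67.7, 10.9 and 18.8 at 60 min (log2 4.49 ± 0.67, edgeR adjusted p = 0.000542), and *RBCS1B* had 4305, 10219.7 and 19565 against 372, 730.0 and 568 (log2 4.39 ± 0.55, edgeR adjusted p = 0.000104). In none of the 3 did the 2 times overlap. The order of *CHS* and *CHIL* depended on single libraries: without 60 min replicate 1 *CHIL* had a log2 fold change of 5.51 and *CHS* one of 5.41, without 360 min replicate 3 *CHIL* had 4.50 and *CHS* 4.44, and without the 6 libraries low in *PXMT1* *CHIL* had 4.195 and *CHS* 4.18. The uncharacterized *AT2G15020* rose by 3.803 ± 0.63 and the phosphotriesterase family gene *AT3G57020* by 3.17 ± 0.54 on the log2 scale. *CP12-2* rose by 3.46 ± 0.55 on that scale. The other 6 were *LHCB1.1* (3.03 ± 0.40), *AT5G56850* (2.83 ± 0.42), *ELIP1* (2.66 ± 0.38), *FBA1* (2.65 ± 0.48), *AT1G13930* (2.204 ± 0.33) and *PSAO* (1.65 ± 0.34). The conditions had read both times, so these calls and their changes under alternatives are a description. *CHS*, *CHIL*, *RBCS1B*, *LHCB1.1*, *ELIP1*, *AT5G56850* and *AT1G13930* passed the threshold under all 15 alternatives run. The others did not. *CP12-2* lost its call without 60 min replicate 2 or 3 or without the libraries low in *PXMT1* (edgeR adjusted p 0.0115 to 0.0126). *AT2G15020* lost it with totals that leave out plastid 23S, without 60 min replicate 3 and without the libraries low in *PXMT1* (edgeR adjusted p 0.0122, 0.0121 and 0.0955). *AT3G57020* lost it without any 1 of the 60 min replicates (edgeR adjusted p 0.0103 to 0.0197) and with totals that leave out plastid 23S (0.0243). *FBA1* lost it without any 1 of the 60 min replicates or 360 min replicate 2 (edgeR adjusted p 0.0104 to 0.0252), without the libraries low in *PXMT1* (0.0237) and with totals that leave out plastid 23S (0.0306). *PSAO* lost it under 9 of the 15, which were the leaving out of 60 min replicate 1 or 2 or 360 min replicate 2 or 3 (edgeR adjusted p 0.0118 to 0.0576), DESeq2 size factors, both other filters on low counts, the replicate block (0.024) and totals that leave out plastid 23S (0.0842).

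*ABCI21* was the 1 gene that fell, with 478, 185 and 389 normalized counts at 360 min against 911, 1061 and 3406 at 60 min (log2 fold change -2.33 ± 0.47, edgeR adjusted p = 0.00799). The libraries did not overlap, and every 360 min library was still above the dark ones, as the conditions require. This call too is a description. Leaving out 60 min replicate 3 or any 1 of the 360 min replicates ended the call (edgeR adjusted p 0.0126 to 0.0591), as did the replicate block (0.0225) and leaving out the libraries low in *PXMT1* (0.0614). The log2 value was -1.505 without 60 min replicate 3. Among the next lowest changes, which did not pass, *SNZ*, an AP2-type repressor of flowering, had 96.3, 98.1 and 109 at 360 min against 231, 203 and 541 at 60 min (log2 -1.65 ± 0.52, edgeR adjusted p = 0.111), and *AT5G48570* had 96.3, 98.1 and 73.5 against 169, 228 and 234 (log2 -1.26 ± 0.49, edgeR adjusted p = 0.219).

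**Figure D4:**
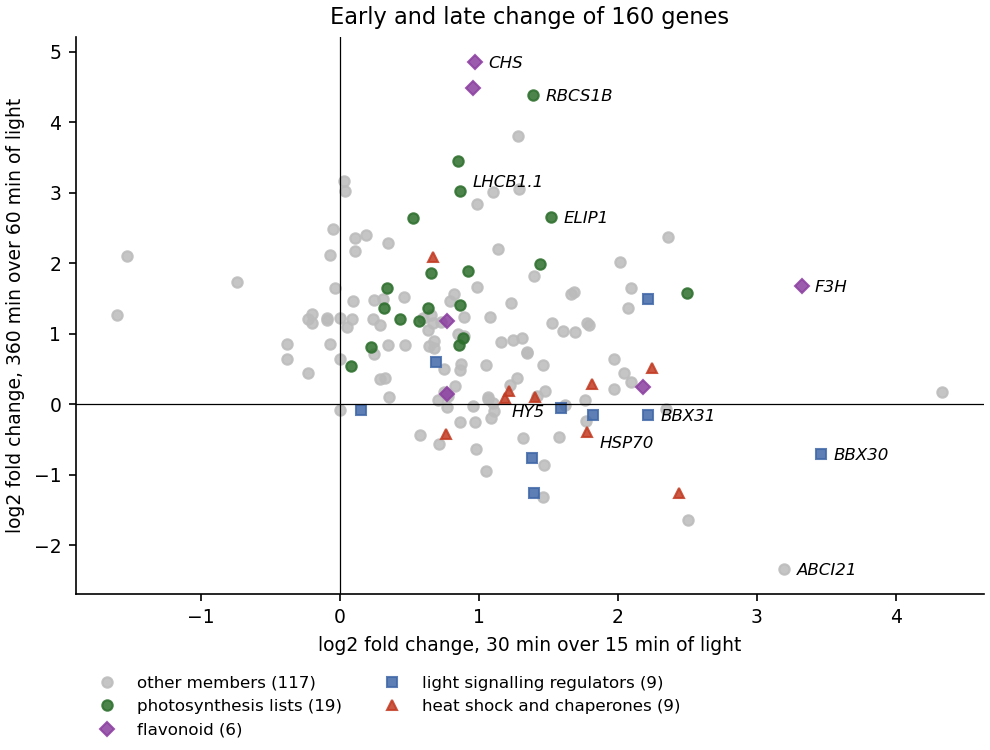
Log2 fold change of 30 over 15 min (horizontal axis) and of 360 over 60 min (vertical axis) for the 160 genes tested, from the edgeR fit, coloured by list, with the number of genes in the legend. *ABCI21* is lowest at -2.33, *CHS* is highest at 4.86, and the 7 antenna genes all lie above 0 on both axes.

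One member is the precursor gene of a microRNA. *MIR163* had 1.72, 2.19 and 0 normalized counts in the dark libraries, 0.482, 11.9 and 0 at 15 min, 13.4, 27.7 and 12.6 at 30 min, 87.4, 45.0 and 89.3 at 60 min, 182, 169.7 and 125 at 150 min and 296, 392 and 199.7 at 360 min. The libraries of each time from 30 min on lay above all dark libraries, and the 360 min mean was 128 times the dark mean plus 1. The log2 fold change of 30 over 15 min was 2.02 ± 0.79 and that of 360 over 60 min 2.02 ± 0.73 (edgeR adjusted p = 1 and 0.183). The change of 30 over 15 min depended on single libraries, with a log2 value of 5.475 without 15 min replicate 2, 1.47 without replicate 1, 1.54 without replicate 3, 1.55 without 30 min replicate 2 and 4.93 without the 6 libraries low in *PXMT1*. Libraries of polyadenylated RNA count the precursor transcript and not the mature miRNA. The mature miR163 of the RefSeq annotation (TAIR10.1, chr1:24884359-24884382, plus strand) is shown with its seed, bases 2 to 8, in capitals. It is followed by the best-matching stretch of the spliced transcripts of 4 methyltransferase genes, the family it is known to target. Bases that pair with it as A with U or G with C, in an alignment without gaps, are in capitals.
miR163: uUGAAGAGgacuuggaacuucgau
PXMT1 (AT1G66700, chr1:24874307-24874330, minus strand): catcgAGTTCCAAGTCCTCTTCAA
AT1G66690 (chr1:24870402-24870425, minus strand): catcgAGTTCCAAGTCCTCTTCAA
FAMT (AT3G44860, chr3:16380055-16380078, plus strand): AatcgAGTTCCAAGTttTCTTCAA
AT3G44870 (chr3:16382618-16382641, plus strand): tatcgAGTTCCAAGTttTCTTCAA

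Without gaps, the sites of *PXMT1* and *AT1G66690* paired with 19 of the 24 bases, that of *FAMT* with 18 and that of *AT3G44870* with 17. Pairs that need a skipped base were not counted. The letters atcg near the left end of each site match the miRNA if 1 of its bases is skipped. *FAMT* and *AT3G44870* differ only in the first base shown, so their order rests on this way of counting. Opposite the 7 seed bases, *PXMT1* and *AT1G66690* paired at 7 and *FAMT* and *AT3G44870* at 6. In *FAMT* and *AT3G44870* the remaining seed base, a G, faces a U, and such G with U pairs were not counted. *PXMT1* had 3092, 1272 and 14.2 normalized counts at 360 min against 29.3, 1754 and 2090.4 in the dark, 1 low library in each group. *FAMT* had 86.4, 30.8 and 0 at 360 min against 0, 20.2 and 56.9 in the dark, and *AT1G66690* had 0, 0 and 1.84 at 360 min against 2.298, 10.4 and 12.8 in the dark.

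Outside the lists the set held further genes of plastid assembly and protection, named here after their values were seen. *PSB28*, a photosystem II assembly factor, had 531, 664 and 794 at 360 min and 39.5, 88.5 and 261 at 60 min, and its 360 min mean was 55.6 times the dark mean plus 1. *YCF37*, the homolog of a cyanobacterial gene, stood at 76.6 times at 360 min and 9.27 times at 60 min. *NdhU* stood at 72.6 times at 360 min and 14.1 times at 60 min, and the thioredoxin-like *CDSP32* at 80.4 times at 360 min and 10.4 times at 60 min. *PGR5*, of cyclic electron flow, *VTC2*, of ascorbate synthesis, and *DDB2*, of DNA damage recognition, were at 6.44, 5.97 and 7.27 times at 60 min. Of the 161 genes, 13 are annotated only as an uncharacterized protein. *DOGT1*, a glucosyltransferase gene in a cluster of near copies, had the highest ratio at 60 min: it had 1.15, 0 and 0 in the dark, 12.8, 5.36 and 48.1 at 30 min and 369, 249 and 436 at 60 min. It was the 1 gene removed from the tests, for 0 counts in 2 libraries of a group.

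Set beside 2 other courses, the median step of the 161 genes between 15 and 30 min was close to that of genes peaking near 60 min and above that of late genes. The 275 late genes had a 360 min mean of at least 4 times the dark mean plus 1, with all libraries above dark, and a 60 min mean under 2 times, and the 35 peaking genes had a 360 min mean under 2 times and a 60 min mean of at least 4 times. For 30 over 15 min, times that define neither of them, the median log2 fold change was 0.89 over the 160 genes raised early and kept high, 0.85 over 33 peaking genes and 0.23 over 269 late genes. An unadjusted edgeR p below 0.05 with a higher value was found in 65 of 160 (40.6%), 12 of 33 (36.4%) and 6 of 269 (2.23%). Over all 16747 genes the share was 1.04%. These are descriptions of the sets and no difference between them was tested.

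At the edges of the conditions the values ran on without a gap. The lowest ratios inside were 4.04 for *AT1G51080*, 4.05 for *CP12-2* and 4.097 for *AT5G52420*, all at 60 min, and the nearest outside were 3.995 for *COL2* at 360 min, 3.99 for *RUP2* at 60 min and 3.98 for *Hop3* at 360 min. The lowest means over the 18 libraries inside were 20.7 for *CCB3*, 22.4 for *AT4G16400* and 22.8 for *AT1G69610*, and the nearest outside were 19.2 for *AT3G44450*, 18.6 for *AT3G52740* and 17.3 for *AT5G17780*. For the gap between the lowest light and the highest dark library, *AT1G51080* and *MYB95* had 0.286 and *AT5G02280* 0.372 inside, and *AT3G51238* and *THI2.2* had 0 and *ATGA2OX1* -0.07 outside. The ratio alone kept out 330 genes, the overlap with dark alone 61 and the mean alone 7.

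The 161 genes lay on all 5 chromosomes, and 2 pairs were neighbours, *AT4G16400* with *AT4G16410* and *ABCI20* with *AT5G02280*. In the annotation 55 of them overlap another gene, 48 on the opposite strand.

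Promoters were read from the TAIR10.1 assembly for all 161 genes and 14560 of the genes with a mean of at least 20, as the 250 bases before and 50 bases after the annotated start. The G-box CACGTG, a hexamer that HY5 and PIF proteins are known to bind and that is its own reverse complement, was in 30 of 161 windows (18.6%), against 9.37% of the 14560. It was in 11.6% of the late genes and in 9 of 34 genes peaking near 60 min (26.5%). The core ACGT, which lies within the G-box, was in 67.1% against 50.9%. On either strand, CACATG was in 14.9% against 12.7%, GATAAG in 16.8% against 15.5%, GGTTAA in 15.5% against 17.5%, AAAATATCT in 4.97% against 3.09%, AAAAATCT in 13.7% against 8.3% and TATAAA in 48.4% against 51.2%. The G-box shares were highest between 100 and 51 bases before the start, with 12 of 161 (7.45%) against 2.82%. In the 250 bases before the start alone, the G-box was in 14.3% against 7.75%. Genes with and without it had a median log2 fold change of 1.06 and 0.87 for 30 over 15 min, and of 0.86 and 0.94 for 360 over 60 min. A match describes the letters of the window and was not tested as a binding site.

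**Figure D5:**
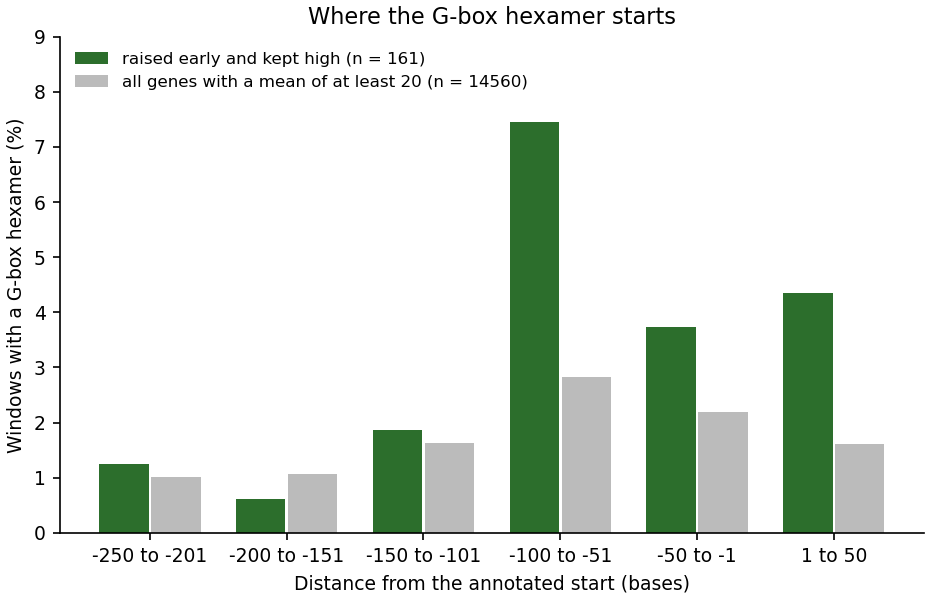
Percentage of promoter windows in which a G-box hexamer starts (vertical axis) in each stretch of 50 bases before or after the annotated start (horizontal axis, distance in bases). The bars of the 161 genes and of 14560 genes with a mean of at least 20 differ most between 100 and 51 bases before the start, at 7.45% and 2.82%.

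The 250 bases before the start are given below, from RefSeq's TAIR10.1 assembly, for 7 members of the lists that hold a G-box there and for 1 quick gene, *AT1G54050*, whose window holds none. They show how far the place of the hexamer, in capitals, varies between genes of the different roles described above.
BBX30 (AT4G15248, chr4:8708591-8708840, plus strand): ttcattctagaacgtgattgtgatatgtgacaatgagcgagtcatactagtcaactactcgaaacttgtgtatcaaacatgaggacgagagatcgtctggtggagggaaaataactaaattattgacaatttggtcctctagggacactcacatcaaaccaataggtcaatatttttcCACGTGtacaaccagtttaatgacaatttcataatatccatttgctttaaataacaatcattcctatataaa
F3H (AT3G51240, chr3:19024942-19025191, plus strand): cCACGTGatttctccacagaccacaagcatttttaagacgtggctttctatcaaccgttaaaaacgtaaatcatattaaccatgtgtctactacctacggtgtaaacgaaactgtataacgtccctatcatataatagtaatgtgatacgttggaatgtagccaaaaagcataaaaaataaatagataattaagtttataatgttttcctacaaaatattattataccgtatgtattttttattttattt
ELIP1 (AT3G22840, chr3:8085670-8085919, minus strand): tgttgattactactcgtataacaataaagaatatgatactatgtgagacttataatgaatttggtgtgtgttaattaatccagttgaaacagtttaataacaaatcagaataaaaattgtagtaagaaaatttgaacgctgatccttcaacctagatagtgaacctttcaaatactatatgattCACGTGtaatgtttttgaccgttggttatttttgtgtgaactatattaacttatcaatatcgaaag
OHP (AT5G02120, chr5:418841-419090, plus strand): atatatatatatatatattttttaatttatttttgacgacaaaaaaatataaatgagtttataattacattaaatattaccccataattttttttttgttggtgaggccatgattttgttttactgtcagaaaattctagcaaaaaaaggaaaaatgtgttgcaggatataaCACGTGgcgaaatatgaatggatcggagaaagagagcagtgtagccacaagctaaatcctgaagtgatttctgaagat
CHS (AT5G13930, chr5:4488226-4488475, plus strand): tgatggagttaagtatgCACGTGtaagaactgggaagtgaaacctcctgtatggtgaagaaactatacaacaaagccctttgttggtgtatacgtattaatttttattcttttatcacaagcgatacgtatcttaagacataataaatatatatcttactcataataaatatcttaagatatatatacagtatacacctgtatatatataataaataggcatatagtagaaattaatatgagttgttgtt
LHCA4 (AT3G47470, chr3:17495034-17495283, minus strand): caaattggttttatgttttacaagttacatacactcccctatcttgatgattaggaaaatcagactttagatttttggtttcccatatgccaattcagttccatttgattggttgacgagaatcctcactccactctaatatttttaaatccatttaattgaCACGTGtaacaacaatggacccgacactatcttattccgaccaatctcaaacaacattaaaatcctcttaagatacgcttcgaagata
CHIL (AT5G05270, chr5:1563036-1563285, plus strand): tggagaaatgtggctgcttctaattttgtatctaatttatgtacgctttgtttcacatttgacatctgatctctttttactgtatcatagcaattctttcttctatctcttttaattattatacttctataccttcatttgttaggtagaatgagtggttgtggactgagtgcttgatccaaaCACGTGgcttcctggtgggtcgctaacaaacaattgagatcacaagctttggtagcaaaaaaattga
AT1G54050 (AT1G54050, chr1:20180567-20180816, minus strand): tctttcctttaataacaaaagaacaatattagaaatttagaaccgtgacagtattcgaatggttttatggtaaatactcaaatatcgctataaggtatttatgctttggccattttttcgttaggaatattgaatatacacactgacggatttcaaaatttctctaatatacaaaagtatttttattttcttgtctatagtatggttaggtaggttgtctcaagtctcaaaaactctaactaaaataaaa

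Counted from the start, the first base of the G-box lies at -72 in *BBX30*, -66 in *ELIP1*, -78 in *OHP*, -88 in *LHCA4* and -67 in *CHIL*. In *F3H* it lies at -249 and in *CHS* at -233.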

How the data were processed

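RNA-seq of 18 libraries (6 groups of 3) was used. According to the methods and notes of the study, the authors quantified transcripts with kallisto (version not given in the sources used here), took them to gene level with tximport, normalized the counts in DESeq (1.36.0 in the submitters' notes) and tested the time course with maSigPro. The notes also name edgeR (3.26.8). Per the file headers, each library's table holds estimated counts and TPM for 82190 transcripts. The TPM deposited by the authors include plastid ribosomal RNA and were used only to scale counts by length. The deposited normalized table (a signal, gene counts divided by a size factor) holds 34212 genes, and 100.0% of its values came out as whole reads within 0.001. It names its 3 columns per group by letters that are not tied to replicate numbers, so that the libraries of the table are given in its own order. Transcript lengths deposited beside the counts were used only for scaling. The estimated counts of the authors, which need not be whole, were scaled by average transcript length and rounded.

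Genes with 0 counts in at least 2 replicates of any group were removed, leaving 16747, and edgeR 4.0.16 (R 4.3.3, TMM factors, robust quasi-likelihood test over all 18 libraries) was applied, with Benjamini-Hochberg adjustment over all genes and a threshold of 0.01. Log2 fold changes carry their SE. DESeq2 1.42.0 was an alternative. The procedure was tested on simulated data with 200 changed genes. For 30 against 15 min it called 4.5% of them at a log2 change of 2 and 53% at 3. For 360 against 60 min these shares were 2.5% and 48%, so most changes of a log2 of 2 were missed. Replicates of a group differed by more than counting noise (chi-square over degrees of freedom 19.1 to 139). Library depth and its plastid share are given in the report and limit what low genes can show. Samples of 30 and 15 min with the same number deviated together (r = 0.173, 0.424 and 0.271), so a fit with the replicate block was run as well, and gave 0 genes called as the fit without it did. The highest r, 0.424, was that of replicate 2, the library low in *PXMT1* at both times.

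The members and the gene lists were chosen with earlier results of these data known. The genes named are members of a list, with values for up to 5 per list in order of the 60 min ratio, the 10 highest each in mean, 30 min ratio and 360 min ratio, the 6 largest called changes per direction, and the 3 nearest each threshold. Other genes named, among them *TZP*, *SNZ*, *ABCI19*, the targets of miR163 and the remaining called genes, were chosen after their values were seen. Lists of chloroplast movement and of heat shock genes were added after values were seen. Gene names, coordinates, overlaps, promoters and miRNA sequences came from the RefSeq annotation of TAIR10.1, in which all 161 genes were found. The promoter of 1 further gene is not reported here. The light intensity differs between the labels and the methods and is not given. Alternatives were other scalings and filters, a replicate block, DESeq2, each library left out, and other thresholds of the conditions.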

Additional observations from a re-analysis of the deposited data

Results flagged for a closer look

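For 13 genes the values of 360 and 60 min differed beyond the threshold of the edgeR test between these times. The conditions had read both times, with the same floor for each, so these differences are given as a description. The log2 fold change of 360 over 60 min was 4.86 for *CHS*, 4.49 for *CHIL*, 4.39 for *RBCS1B*, 3.803 for *AT2G15020*, 3.46 for *CP12-2*, 3.17 for *AT3G57020*, 3.03 for *LHCB1.1*, 2.83 for *AT5G56850*, 2.66 for *ELIP1*, 2.65 for *FBA1*, 2.204 for *AT1G13930*, 1.65 for *PSAO* and -2.33 for *ABCI21*. Groups of 3 libraries are too small for a check of single outlying libraries.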

How the results depend on the processing

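The conditions gave 161 genes, and 88 with 6 in place of 4 times the dark mean plus 1. Leaving out 1 library of the table gave 157 to 245. With TMM factors 166 genes met them, of which 157 were among the 161, and the other thresholds gave 143 to 238. All 3 libraries of 30 min above all dark ones was found for 76 genes, for 86 to 100 with 1 library left out, and for 105 of the genes without the 6 libraries low in *PXMT1*, an alternative chosen after seeing the data.

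For 30 against 15 min, the calls of 0 in all and 0 in the set became 1 and 1 with no filter on low counts and 17 and 11 with DESeq2, and stayed 0 under the others. Members higher at an unadjusted p below 0.05 numbered 51 to 65 with 1 library left out, 65 with the replicate block and 72 with totals that leave out plastid 23S. The 12 genes followed in this test kept their direction in all 180 results, and 9 moved past the threshold.

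For 360 against 60 min, 93 genes were higher and 27 lower. Those higher became 39 with totals that leave out plastid 23S, 59 with the replicate block, 310 with DESeq2, 54 without the libraries low in *PXMT1*, and 42 to 117 with 1 library left out. Those lower became 49 with no filter, 13 with the replicate block, 120 with DESeq2 and 4 to 63 with 1 library left out. Of the members, 24 were higher with DESeq2 (13 of its 25 calls were shared) and 8 to 14 with 1 library left out. The 1 member lower became 0 with the replicate block and without the libraries low in *PXMT1*, and 0 to 1 with 1 library left out. In 31 of 195 results a named gene lost its call, and none reversed. Same-numbered samples of these times did not all deviate together (r = 0.199, 0.024 and 0.337), so the numbers were not taken as pairs. The highest r, 0.337, was that of replicate 3, the library low in *PXMT1* at both times.

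For 30 min against dark, 14 of all genes were called. This became 5 with the replicate block, 45 higher and 11 lower with DESeq2, 6 without the libraries low in *PXMT1* and 0 to 7 with 1 library left out. The cause of these changes was not tested. The G-box was in 23 of 161 windows when only the 250 bases before the start were read.

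Depth limits the libraries with most plastid rRNA, where 1 read was worth up to 3.32 normalized counts, and low genes of the dark and 15 min groups.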
